A study of Sus scrofa with 12 samples.

Results

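RGS2 and GEM, both higher in the muscle of pigs with high intramuscular fat (IMF), were set beside the other genes of their families: RGS3, RGS4, RGS5 and RGS16 for RGS2, and RRAD, REM1 and REM2 for GEM. Members were found by their symbols in the pig Ensembl gene name table. Of the 9 symbols, 8 had an identifier, and RGS3 was skipped because it had none. All 8 passed the filter on low counts, and they are 8 of the 14262 genes tested and of the 25880 genes listed. The pigs were 12 purebred Italian Large White animals, kept in 1 environment on the same diet, weighing 150-160 kg and between 229 and 249 days old, taken at slaughter from the 2 extremes of IMF content of a larger population. Pigs 1 to 6 form the high IMF group and pigs 7 to 12 the low IMF group, with 3 pigs labelled female and 3 labelled male in each. Per the study, the pigs labelled male were barrows, that is castrated males, and the pigs were slaughtered on several different days. Which pigs shared a day is not given in the sources used here. No animal was given an experimental treatment, and Semimembranosus muscle of each was studied once, by stranded polyadenylated RNA sequencing. RGS2 and GEM were chosen by the very contrast between these groups, so their differences are given as a description, with no test.

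RGS proteins (regulators of G protein signalling) speed up the hydrolysis of GTP by G protein alpha subunits and so shorten the signal of the receptors upstream. Muscle holds them both in its fibres and in the vessels between them, and RGS5 is a well known marker of pericytes. The RGK proteins (RAD, GEM, REM1 and REM2) are small Ras-like GTPases that bind the beta subunits of voltage-gated calcium channels and lower the current through them. RGS2, RGS16, GEM and RRAD are genes whose transcription can rise quickly after a stimulus.

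The upstream sequences are shown because cyclic AMP and calcium signals can act on genes of this kind through the cyclic AMP response element (CRE). The 250 bases before the RefSeq start of each gene were read from Sscrofa11.1, on the strand of the gene. Capitals mark a CRE (TGACGTCA) or its core (TGACG, read as CGTCA on the other strand). AP-1 sites (TGANTCA) and the CArG box were also searched on both strands and were in none of the 8 windows.
GEM: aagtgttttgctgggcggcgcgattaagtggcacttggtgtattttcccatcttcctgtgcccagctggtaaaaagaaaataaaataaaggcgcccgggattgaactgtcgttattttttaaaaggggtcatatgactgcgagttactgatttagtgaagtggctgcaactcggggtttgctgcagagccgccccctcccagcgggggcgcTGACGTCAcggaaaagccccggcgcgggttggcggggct
RGS2: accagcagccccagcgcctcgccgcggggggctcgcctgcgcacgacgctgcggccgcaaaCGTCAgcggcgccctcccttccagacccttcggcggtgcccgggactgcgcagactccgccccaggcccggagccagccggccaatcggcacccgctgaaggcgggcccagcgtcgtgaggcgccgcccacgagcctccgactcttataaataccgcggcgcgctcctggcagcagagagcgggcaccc
RGS4: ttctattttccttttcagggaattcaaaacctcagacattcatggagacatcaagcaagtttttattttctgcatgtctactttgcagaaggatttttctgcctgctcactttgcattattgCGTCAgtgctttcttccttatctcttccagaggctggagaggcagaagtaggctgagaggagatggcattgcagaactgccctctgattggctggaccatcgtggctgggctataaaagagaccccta
RRAD: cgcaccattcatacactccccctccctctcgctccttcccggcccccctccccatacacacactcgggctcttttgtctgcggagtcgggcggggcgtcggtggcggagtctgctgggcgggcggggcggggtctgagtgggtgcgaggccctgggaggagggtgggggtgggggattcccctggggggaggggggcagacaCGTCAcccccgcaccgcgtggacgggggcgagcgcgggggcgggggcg
These windows lie at chr4:42458341-42458590 (plus strand), chr10:940084-940333 (minus strand), chr4:87390479-87390728 (minus strand) and chr6:27605128-27605377 (minus strand). The GEM window held the full CRE, 39 to 32 bases before the start, where the CRE core is counted on both strands because the element reads the same on each. A full CRE was present in 1.70% of 19556 windows of the same length before protein-coding genes, and the core in 19.6% of them. The core was thus found before 4 of the 8 members, GEM, RGS2, RGS4 and RRAD, and not before RGS5, RGS16, REM1 or REM2. A TATA box (TATAAA), found in 9.77% of windows, was present before RGS2 (44 to 39 bases before the start) and RGS4 (17 to 12 bases). RRAD held 5 matches and REM1 4 matches of the GC box (GGGCGG), which 45.9% of windows contain, some of them overlapping each other. The RGS2 and RRAD windows each had 74.8% G and C, above 88.8% of windows, and the RGS4 window 44.8%. A match of letters says nothing about whether a factor was bound in these muscles.

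Each pig had from 131048805 to 178013997 counts in all, and levels are given as CPM, counts scaled to a library of 1000000 after TMM normalization, where a CPM of 1 stood for more than 100 counts in each pig. ACTA1, CKM, TNNT3 and DES, the 4 muscle fibre markers with an identifier, were abundant in every pig and summed to between 31711 and 60988 CPM. Counts of the Y chromosome genes EIF1AY and KDM5D went against the labelled sex in 6 of the 12 pigs (2 with high and 4 with low IMF). An exchange of samples cannot be told apart from wrong sex labels. If samples were exchanged, the IMF group of the pigs concerned would be uncertain too, and with it the differences between the groups given below. Pig 6 stood apart by its neutrophil and macrophage markers, and pigs 1 and 6 had the highest RGS16, RGS1 and RGS10, as given below. These are bulk samples, in which more cells of a type and more RNA per cell cannot be told apart.

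RGS2, which acts preferentially on the Gq class of alpha subunits, lies at chr10:936836-940083 on the minus strand. Its level in the high IMF pigs was 7.80 CPM at the lowest (pig 2), 16.6 CPM at the median and 28.4 CPM at the highest (pig 5). In the low IMF pigs it was 2.76 CPM at the lowest (pig 9), 5.22 CPM at the median and 9.07 CPM at the highest (pig 10). Thus 5 of the 6 high IMF pigs stood above every low IMF pig, and the groups overlapped through pigs 2 and 10. The means were 17.4 ± 7.93 CPM (SD, n = 6) with high and 5.39 ± 2.13 CPM (SD, n = 6) with low IMF, which is a log2 fold change (log2FC, low over high IMF) of -1.69 (SE 0.33), or 3.23-fold more in the high IMF group.

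GEM lies at chr4:42458591-42471941 on the plus strand. High IMF pigs had 6.55 CPM at the lowest (pig 2), 6.93 CPM at the median and 10.2 CPM at the highest (pig 4). Low IMF pigs had 3.52 CPM at the lowest (pig 9), 4.50 CPM at the median and 5.30 CPM at the highest (pig 12). The groups did not overlap. GEM was the only member whose groups were fully separated. Over all genes tested, 0.4% had every high IMF pig above every low IMF pig, and 0.259% had the reverse order. Because this contrast chose GEM, nothing is read from that separation. The log2FC was -0.79 (SE 0.15), or 1.73-fold more in the high IMF group, with means of 7.72 ± 1.55 CPM (SD, n = 6) and 4.45 ± 0.743 CPM (SD, n = 6). GEM therefore differed by a smaller fold than RGS2 but with a narrower spread. Within the high IMF group the coefficient of variation was 20.1% for GEM and 45.6% for RGS2.

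**Figure D1:**
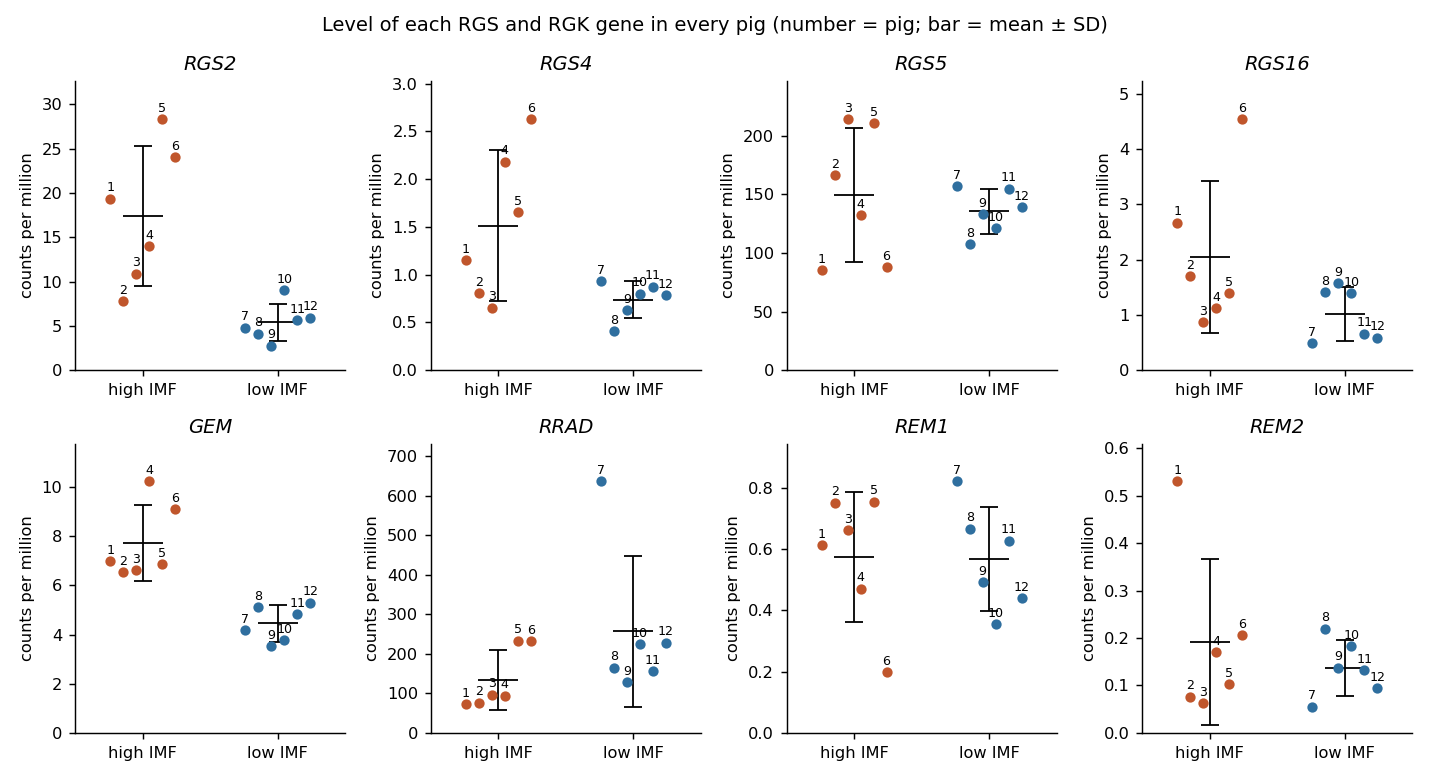
CPM (vertical axis, linear, from 0) of the 8 genes in each pig, with high IMF pigs in orange and low IMF pigs in blue; numbers name the pigs and bars give the mean ± SD of 6 pigs. The 6 high IMF pigs lie above all low IMF pigs for GEM, 5 of 6 do for RGS2, and pig 7 stands at 636 CPM for RRAD.

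The relatives were chosen by family, so their rows of the edgeR quasi-likelihood test can be read. None of the 6 relatives was a differentially expressed gene (DEG), and the test called 0 of all genes (0%) at an adjusted p at or under 0.05 with a log2FC of at least 0.58 in size. At an unadjusted p at or under 0.05, RGS4, RGS16 and RRAD passed, 3 of 6 relatives beside 10.4% of all genes (719 higher in high and 767 higher in low IMF). DESeq2's Wald test called 64 genes (0.458% of those with an adjusted p), none of them a relative. With RGS2 and GEM left out, RGS4 and RGS16 pointed to the high IMF group and RRAD to the low IMF group.

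RGS4, which acts on Gi and Gq alpha subunits, lies at chr4:87383336-87390478 on the minus strand. In high IMF pigs its level ran from 0.655 CPM (pig 3) to 2.63 CPM (pig 6) around a median of 1.40 CPM. In low IMF pigs it ran from 0.406 CPM (pig 8) to 0.931 CPM (pig 7) around a median of 0.793 CPM. Of the high IMF pigs, 4 stood above every low IMF pig and the other two lay within the range of the low IMF group. The log2FC was -1.04 (SE 0.34, unadjusted p = 0.00857), with an adjusted p of 0.420 by edgeR and 0.137 by DESeq2. An exact permutation test of the mean log2 CPM, two-sided over every arrangement of the pigs, gave p = 0.0390, before any correction for the 6 relatives. Without pig 6, the pig with the highest RGS4, the log2FC was -0.81. RGS4 had r = 0.611 with the summed neutrophil markers and 0.576 with those of T and B lymphocytes, over 12 pigs with the group means removed, and the part of these cells in the RGS4 value was not tested.

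RGS16, another RGS protein of Gi and Gq subunits, lies at chr9:123913179-123919119 on the minus strand. In high IMF pigs it ran from 0.876 CPM (pig 3) to 4.55 CPM (pig 6) around a median of 1.55 CPM. In low IMF pigs it ran from 0.489 CPM (pig 7) to 1.58 CPM (pig 9) around a median of 1.03 CPM. The groups overlapped broadly: 3 high IMF pigs (1, 2 and 6) stood above the low IMF pigs. The log2FC was -1.003 (SE 0.42, unadjusted p = 0.0336, adjusted p = 0.447 by edgeR, exact permutation p = 0.0714). It was -0.60 without pig 6 and -0.32 without pigs 1 and 6. In pig 6 the summed level of 4 neutrophil markers was 12.0 CPM, against 0.758 to 2.42 CPM in the other 11 pigs. The part of these cells in the RGS16 value was not tested.

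RGS5 lies at chr4:87286953-87340816 on the plus strand, 42.5 kb from RGS4 with no protein-coding gene between them. Its level ran from 85.6 CPM (pig 1) to 215 CPM (pig 3) in the high IMF group and from 108 CPM (pig 8) to 157 CPM (pig 7) in the low IMF group. The high IMF group was spread to both sides of the low IMF group, with 3 pigs above all its values and 2 pigs, 1 and 6, below them. The coefficient of variation was 38.4% with high and 14.2% with low IMF. RGS5 had a log2FC of -0.14 with a 95% interval of -0.63 to 0.34 (edgeR adjusted p = 0.863), so a difference in mean of the size seen for RGS2 lies outside the interval.

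RRAD, the gene of RAD, first described from the muscle of people with type II diabetes, lies at chr6:27601692-27605127 on the minus strand. Its log2FC was 0.94, towards the low IMF group (SE 0.43, unadjusted p = 0.0472), with an edgeR adjusted p of 0.473 and an exact permutation p of 0.0887. High IMF pigs had 72.1 CPM at the lowest (pig 1), 95.4 CPM at the median and 233 CPM at the highest (pig 5). Low IMF pigs had 128 CPM at the lowest (pig 9), 195 CPM at the median and 636 CPM at the highest (pig 7). The 4 high IMF pigs 1 to 4 lay below every low IMF pig, whereas pigs 5 and 6 lay above every low IMF pig but pig 7. Without pig 7 the log2FC was 0.44. Pig 7 also had the smallest TMM factor, 0.810, and over the 12 pigs, after removal of the group means, RRAD had r = -0.742 with the log2 TMM factor. The 9 macrophage and leukocyte markers had r = 0.658 with RRAD. The 5 tested markers of T and B lymphocytes had r = 0.859 with it, and their sum was highest in pigs 5, 6 and 7 (4.43, 3.89 and 2.83 CPM), beside 1.51 to 2.04 CPM in the other pigs. The part of the library or of lymphocytes in the RRAD value was not tested.

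REM1 lies at chr17:35208344-35218771 on the plus strand and REM2 at chr7:76141015-76149162 on the minus strand. REM1 had between 25 and 118 counts in a pig and REM2 between 6 and 83. REM1 ran from 0.198 CPM (pig 6) to 0.755 CPM (pig 5) in the high and from 0.355 CPM (pig 10) to 0.821 CPM (pig 7) in the low IMF group. The fitted log2FC of REM1 was -0.02 with a 95% interval of -0.71 to 0.66, whereas its mean log2 CPM was higher in the low IMF group by 0.04. REM2 ran from 0.0621 CPM (pig 3) to 0.530 CPM (pig 1) in the high and from 0.0553 CPM (pig 7) to 0.220 CPM (pig 8) in the low IMF group. Its log2FC of -0.48 had a 95% interval of -1.62 to 0.67 and turned to 0.15 without pig 1. Neither gene passed the test (edgeR adjusted p = 0.987 for REM1 and 0.789 for REM2).

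**Figure D2:**
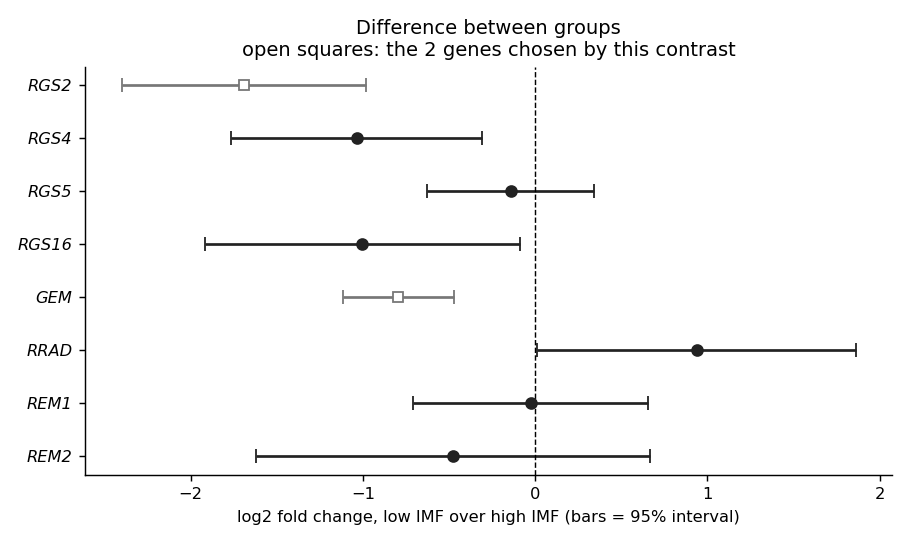
Log2 fold change of low over high IMF (horizontal axis) of each gene from the edgeR fit, with bars for the 95% interval over 6 pigs a group; open squares are RGS2 and GEM, which this contrast chose. RGS4 and RGS16 lie to the side of the high IMF group, RRAD to the side of the low IMF group at 0.94, and the intervals of RGS5, REM1 and REM2 span 0.

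Levels of different genes were compared per transcript length, as RPKM (counts per kilobase of transcript, scaled as CPM are) with RefSeq exon lengths. In the order of the median over the 12 pigs, RRAD had 110.5 RPKM, RGS5 66.5, RGS2 6.66, GEM 1.86, RGS16 0.522, REM1 0.396, RGS4 0.289 and REM2 0.0305 RPKM. RGS5 exceeded RGS2, RGS2 exceeded GEM, GEM exceeded RGS16 and RGS4 exceeded REM2 in 12 of 12 pigs. RRAD exceeded RGS5 in 10 of 12 pigs, RGS16 exceeded REM1 in 8 of 12 and REM1 exceeded RGS4 in 7 of 12, so these neighbours were not separated in every pig. Each family therefore had a dominant gene in this muscle, RGS5 among the RGS members and RRAD among the RGK members, and neither was the gene chosen for its difference between the groups.

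**Figure D3:**
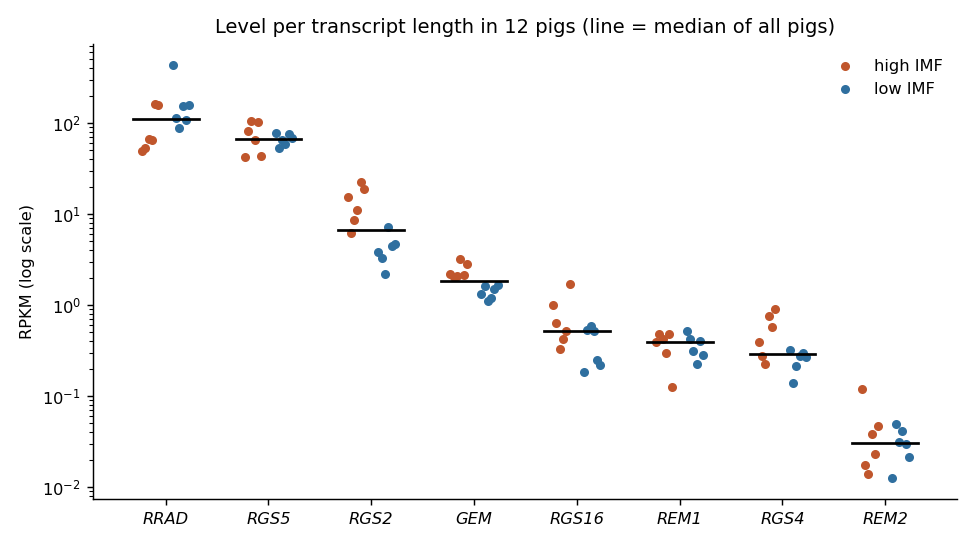
RPKM (vertical axis, log scale) of the 8 genes in 12 pigs, ordered by the median of all pigs (black line), with high IMF pigs in orange and low IMF pigs in blue. Median levels span from 110.5 RPKM for RRAD to 0.0305 RPKM for REM2, with RGS2 and GEM between them.

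Whether members varied together from pig to pig was examined with the group means removed, which sets aside the contrast that chose RGS2 and GEM. Of the 28 pairs, RGS5 and REM2 alone passed a Benjamini-Hochberg correction, with r = -0.855 (permutation p = 6e-04, corrected 0.0168) and a Spearman coefficient of -0.944 (permutation p = 2e-05, corrected 5.6e-04). The relation was present in both groups (r = -0.883 in the high and -0.828 in the low IMF group) and was -0.816 without pigs 1 and 6, the pigs farthest from the median of RGS5. Pigs 1, 6, 8 and 10 combined low RGS5 with high REM2, and pigs 2, 3, 5 and 7 the opposite. RGS5 and RGS16 had r = -0.766 (permutation p = 0.00530, corrected 0.0742) and a Spearman coefficient of -0.678 (permutation p = 0.0263, corrected 0.246), which did not pass. All pairs share the same libraries and their scaling.

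Endothelial markers were summed and set beside the members. PECAM1 was the largest of them, at means of 57.2 CPM with high and 64.1 CPM with low IMF. CDH5 alone of the 6 tested passed an unadjusted p of 0.05, towards low IMF (log2FC 0.55, edgeR unadjusted p = 0.00411). Their summed level over 6 tested markers ran from 104 to 143 CPM in the high and from 109 to 176 CPM in the low IMF group. As a description over 12 pigs with the group means removed, it had r = 0.728 with RGS5, -0.709 with RGS16 and -0.807 with REM2. Its r was -0.241 with RGS2, -0.118 with GEM, 0.195 with RGS4, 0.319 with RRAD and 0.360 with REM1. Single markers did not all follow the sum. In the high IMF group KDR was highest in pig 6 (21.7 CPM) and lowest in pig 3 (10.9 CPM), where RGS5 had 88.0 and 215 CPM. The 10 markers of pericytes and smooth muscle ran from 246 to 349 CPM in the high and from 265 to 501 CPM in the low IMF group, with r = 0.459 for RGS5. The highest sum was that of pig 12, and the next low IMF pig, pig 11, had 321 CPM. ABCC9 had the highest mean of these markers, 154 CPM with high and 141 CPM with low IMF, so the sum rests largely on 1 gene. The part of the vessels in these member values was not tested. Of the 8 adipocyte markers none passed an unadjusted p of 0.05, with sums from 287 to 400 CPM with high and from 155 to 583 CPM with low IMF, and their r was 0.429 with GEM and -0.307 with RGS2. Of the 7 fibro-adipogenic markers tested 1 pointed to high IMF at that limit, and their r was -0.526 with RGS2 and 0.183 with GEM. RGS2 had r = 0.557 with the T and B lymphocyte markers, 0.460 with the neutrophil and 0.304 with the macrophage and leukocyte markers, where GEM had r = -0.002, 0.157 and 0.173. The part of these cells in the RGS2 value was not tested. REM1 had r = -0.801 with the summed neutrophil markers, where pig 6 was the lowest for REM1 and the highest for the markers.

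RGS2 and GEM themselves had r = 0.216 (permutation p = 0.522, corrected 0.769) and a Spearman coefficient of 0.175 (permutation p = 0.602, corrected 0.733) once the group means were removed. Without pigs 2 and 9, the farthest from the median of RGS2, r was -0.240. Pig 5 had the highest RGS2 with a GEM below the mean of its group, and pig 4 had the highest GEM with an RGS2 below the mean of its group. Counted over all genes tested, GEM was 4144th in likeness to RGS2 and RGS4 was 379th, with r = 0.611 (Spearman coefficient 0.524, permutation p = 0.0614 and 0.110, corrected 0.287 and 0.384).

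**Figure D4:**
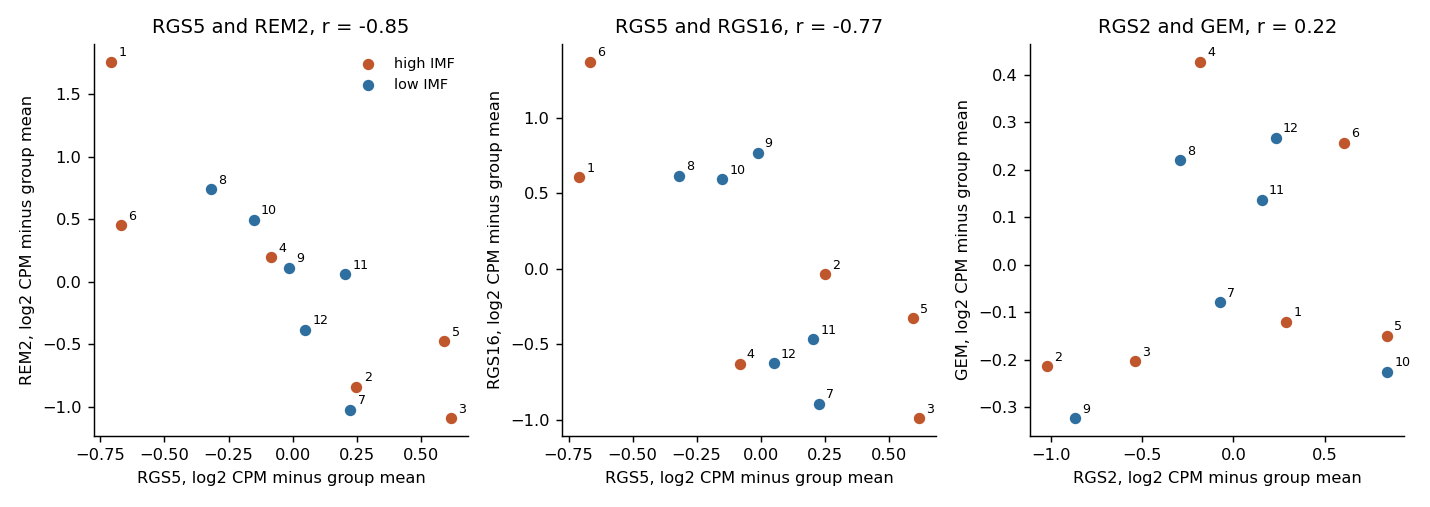
Log2 CPM minus the group mean for RGS5 and REM2 (left), RGS5 and RGS16 (middle) and RGS2 and GEM (right), 1 point per pig with its number, high IMF in orange and low IMF in blue. The points fall along a descending line in the left panel (r = -0.855) and show no line in the right panel (r = 0.216).

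Among the named genes most like RGS2 by the same measure, over 12 pigs, were MRFAP1 (r = 0.894), ZNF576 (0.876) and PDCD1LG2 (0.858), a ligand of the PD-1 receptor. Those most like GEM were PPEF1 (0.885), a calcium-binding phosphatase, GMNN (0.875), which controls DNA replication licensing, HEXA (0.827), a lysosomal enzyme, CERS4 (0.813), a ceramide synthase, and MED31 (0.793). For RGS16 they were VASH2 (0.951), ADAMTS4 (0.946), a secreted protease, CERS1 (0.940), MICALL2 (0.938) and CSF1 (0.938), the growth factor of macrophages. The 3 genes had no name in common among these. These values are among the highest of a ranking of all genes tested and describe these pigs only.

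RGS genes lie in clusters of the genome. On chromosome 10, RGS13, RGS1, RGS21 and RGS18 follow RGS2 on the same strand, at gaps of 117, 207, 402 and 581 kb. RGS1, which leukocytes express and which was known to differ in these pigs when the list was written, ran from 2.44 to 10.1 CPM in the high IMF group against 1.26 to 2.24 CPM in the low IMF group, with no overlap. RGS1 had a log2FC of -1.45 (SE 0.36, edgeR unadjusted p = 0.00141, adjusted p = 0.331). RGS18 had a log2FC of -0.46 (edgeR adjusted p = 0.607), RGS13 was at 0 in 8 of the 12 pigs and was not tested, and RGS21 had no identifier. With the group means removed, RGS2 had r = 0.504 with RGS1 and 0.335 with RGS18. RGS16 and its neighbour RGS8, 18.6 kb apart on chromosome 9, had r = 0.221.

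Of 16 other RGS genes, 11 were tested. RGS1 and RGS10 (log2FC -0.99, SE 0.45, unadjusted p = 0.0467) pointed to the high IMF group at an unadjusted p at or under 0.05, none pointed to the low IMF group at that limit, and none was a DEG by adjusted p. This is 2 of 11 genes, beside 10.4% of all genes at that limit. RGS10 rested on pig 6, with a log2FC of -0.39 without it (edgeR unadjusted p = 0.253). Without pigs 1 and 6, RGS10 turned to 0.05 (edgeR unadjusted p = 0.839) and RGS1 had -0.68 (edgeR unadjusted p = 0.00699). RGS22 followed with a log2FC of -0.49 (edgeR unadjusted p = 0.0610). The median log2FC of the 11 was -0.21, and 8 of them were negative, beside a median of -0.01 and 51.6% negative over all genes. RGS1 and RGS10 were highest in pig 6 and next highest in pig 1. The 9 macrophage and leukocyte markers also peaked in pig 6, at 145 CPM, and ran from 59.1 to 145 CPM in the high and from 69.4 to 118 CPM in the low IMF group. Of these 9, ITGAM (log2FC -1.06, edgeR unadjusted p = 0.00928) and AIF1 (-0.46, edgeR unadjusted p = 0.0413) pointed to the high IMF group, and AIF1 had -0.30 without pig 6. The part of leukocytes in the RGS values was not tested.

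Among the G proteins on which RGS proteins act, GNAI2, an inhibitory alpha subunit, was the 1 of 10 alpha subunits tested that passed an unadjusted p of 0.05, with a log2FC of 0.25 (edgeR unadjusted p = 0.0331) that passed in 4 of the 12 fits with a pig left out. GNAI3 (log2FC -0.12) and GNAT2 (0.89, at most 0.270 CPM) did not pass. Of 8 beta and gamma subunits, GNG4 passed with a log2FC of -1.76 (SE 0.80, edgeR unadjusted p = 0.0459) at a level of at most 2.91 CPM, while GNB1 (0.16) and GNB2 (0.12) did not. GNG4 had a log2FC of -1.22 without pig 1 and did not pass there. It also did not pass without pig 2, 5, 7, 10, 11 or 12 (edgeR unadjusted p from 0.0510 to 0.0926). GNG8 and GNG13 were listed at 0 in every pig, and whether the counting left out their reads is not known. Of 12 phospholipase C beta and adenylyl cyclase genes, ADCY1 (log2FC 0.76, edgeR unadjusted p = 0.0215) and ADCY9 (0.44, unadjusted p = 0.0218) pointed to the low IMF group at that limit, and ADCY6 (0.38) did not pass. None of these genes was a DEG by adjusted p, and the counts of 1 of 10, 1 of 8 and 2 of 12 stand beside 10.4% of all genes at the unadjusted limit.

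The partners of the RGK proteins are the subunits of calcium channels, calmodulins, calmodulin-dependent kinases and other kinases, and 13 genes of this list were tested. At the unadjusted limit of 0.05, 3 of the 13 pointed to the low IMF group and none to the other, beside 10.4% of all genes in both directions. The median log2FC of the 13 was 0.19 and 3 of them were negative, beside a median of -0.01 and 51.6% negative over all genes. The 3 became 1 without pig 7 or without pig 9. Without pig 6 or without pig 10, 2 partners pointed to the low and 1 to the high IMF group. CACNB3, a calcium channel beta subunit, had 0.895 ± 0.259 CPM in the high and 2.71 ± 1.93 CPM in the low IMF group (SD, n = 6 each; log2FC 1.60, edgeR unadjusted p = 0.00494, adjusted p = 0.419). CACNB1, the beta subunit of skeletal muscle, had 115 ± 11.2 and 137 ± 20.4 CPM in the same order (log2FC 0.26, edgeR unadjusted p = 0.0382). CAMK2B had a log2FC of 0.31 (edgeR unadjusted p = 0.0280). In the fits with a pig left out, CACNB1 passed the unadjusted limit only without pig 1, 4, 8 or 12. CAMK2B did not pass it without pig 4, 6, 7, 8 or 9. CACNB3 here, RGS1 above and RASD1 below were known from earlier results of these pigs, so their place in the lists is no independent evidence.

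Of 12 other small Ras-like GTPases tested, RASD1, a GTPase induced by dexamethasone, pointed to the high IMF group, with 4.47 ± 2.14 CPM against 1.94 ± 0.386 CPM (SD, n = 6 each) and no overlap (log2FC -1.21, edgeR unadjusted p = 6.45e-04, adjusted p = 0.256). NKIRAS2, an inhibitor of NF-kappa-B signalling, pointed to the low IMF group (log2FC 1.06, edgeR unadjusted p = 0.00923), and RASL11A (-0.52) did not pass. Of 17 immediate early genes, the class to which quickly induced RGS and RGK genes are likened, 6 pointed to the high IMF group at an unadjusted p at or under 0.05 (FOS, EGR1, EGR2, EGR3, IER2 and KLF2) and 2 to the low IMF group (FOSL2 and NR4A3), beside 10.4% of all genes in both directions. The 6 became 3 without pig 12 and 4 without pig 6, and without pigs 1 and 6 the numbers were 2 and 1. EGR2 had a log2FC of -1.02 and IER2 of -0.92, while FOSL2 had 0.56 (edgeR unadjusted p = 0.00765, 0.00916 and 0.00172). None was a DEG by adjusted p, and JUNB was listed at 0 in every pig, where it is not known whether the counting left out its reads. Over the 12 pigs with the group means removed, the summed level of the class had r = 0.374 with RGS2, 0.116 with GEM and 0.490 with RRAD. Of the 17 genes, 13 had a negative log2FC, beside 51.6% of all genes, and the median was -0.31, beside -0.01.

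**Figure D5:**
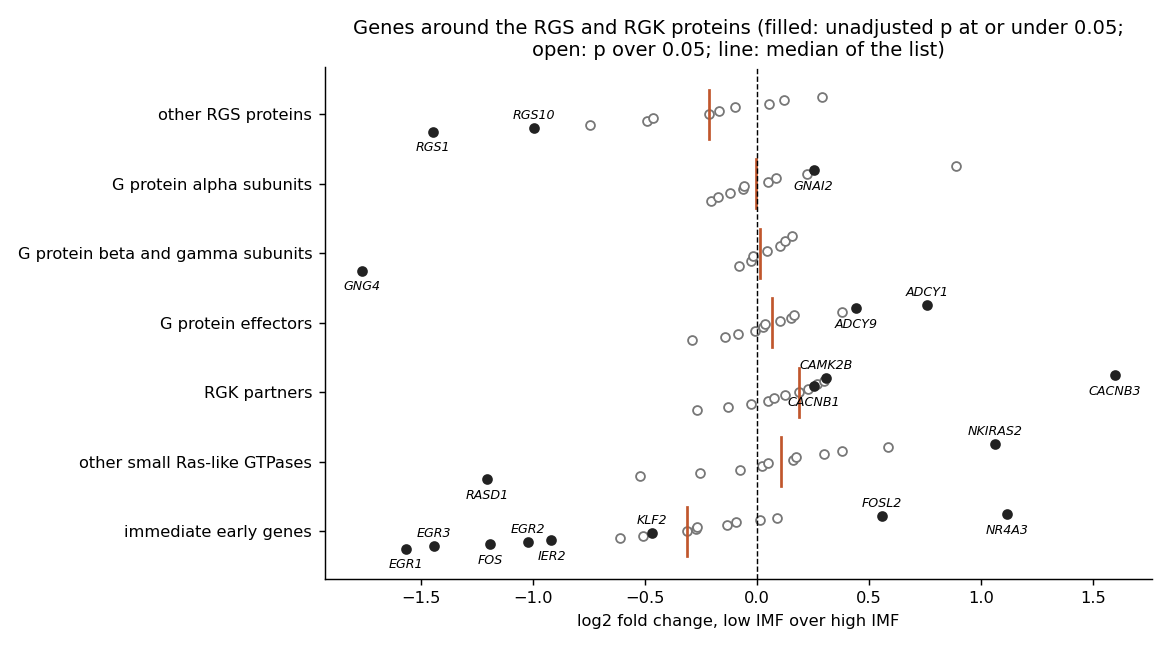
Log2 fold change of low over high IMF (horizontal axis) of every tested gene of 7 lists around the RGS and RGK proteins, filled where the unadjusted p is at or under 0.05, with a line at the median of each list. The list of RGK partners has its 3 filled genes on the side of the low IMF group, and the other RGS genes have RGS1 and RGS10 on the side of the high IMF group.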

How the data were processed

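Per the labels and the study's methods, the authors trimmed read pairs with Trimmomatic and aligned them to Sscrofa11.1 with HISAT2. The deposited whole-number counts per Ensembl gene and pig are described there as raw and made with HTSeq. In every pig, however, the total of these counts was above the number of input reads that the study lists for that sample. What a count stands for is therefore uncertain, and how the counts were made was not tested. The strand option, the annotation release and the treatment of multiple alignments are not given in the sources used here, so overlapping genes and near copies are uncertain. Pairs of libraries shared a lane, and which pigs these were was not analysed here.

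Counts were filtered (filterByExpr), scaled by TMM and compared in edgeR 4.0.16 (under R 4.3.3) by its quasi-likelihood test, with IMF group as sole factor; p-values were adjusted by Benjamini-Hochberg over 14262 genes. The contrast used 10 residual degrees of freedom. Exact permutation tests ran over every arrangement of the pigs. Correlations used log2 CPM with a prior count of 2 and 100000 resamples within groups. DESeq2 1.42.0 and limma 3.58.1 were alternatives, and the pipeline was tested on simulated counts. RPKM used RefSeq exon lengths matched by symbol.

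The members, lists and tests were chosen with earlier results of these data known. Named genes were the members, the 3 genes of smallest p in each list (with those at p of 0.05 or less), and the 5 genes most like RGS2, GEM and RGS16. Some genes that this rule names are not reported here. The pigs are separate animals.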

Additional observations from a re-analysis of the deposited data

Results flagged for a closer look

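In 2 of 16 groups of 6 pigs (8 genes, 2 groups each), a pig lay far from the others on the log2 CPM scale. In the low IMF group, pig 7 was the highest for RRAD, with a gap to the next pig of 0.639 of the whole range. In the high IMF group, pig 6 was the lowest for REM1, with a gap of 0.642 of the range. Both lay just past Dixon's 95% critical value for 6 pigs, and chance gives such a gap in about 1 of 20 groups. REM1 had 25 counts in pig 6, against 69 to 118 in the other high IMF pigs.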

How the results depend on the processing

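The log2FC of RGS2 (-1.90 to -1.49), GEM (-0.84 to -0.69), RGS4 (-1.19 to -0.81), RGS16 (-1.99 to -0.32) and RRAD (0.44 to 1.17) kept its sign under all 24 alternatives (for RGS2 and GEM a sign that their choice had fixed), and no relative passed the adjusted threshold under any of them. The ends of the RGS16 range came without the pigs whose Y counts go against the labelled sex and without pigs 1 and 6. The first of these fits left out 2 high and 4 low IMF pigs, so few low IMF pigs remained in it. The second was an alternative chosen after seeing the data, as were the lists with pigs left out. The log2FC of REM1 turned to 0.012 with labelled age as a covariate and to 0.073 without the pigs whose Y counts go against the labelled sex, and ran from -0.20 to 0.079 as each pig was left out. That of RGS5 turned to 0.33 without those Y-discordant pigs and was -0.42 without pigs 1 and 6. That of REM2 was -1.11 without the Y-discordant pigs, turned to 0.41 without pigs 1 and 6, and ran from -0.66 to 0.15 as each pig was left out. The correlation of RGS2 and GEM turned to -0.240 without the pair of pigs farthest from the median of RGS2. Genes called numbered 64 by DESeq2's Wald test on all genes with at least 1 count and 59 on the genes tested by edgeR, and 0 to 1 as each pig was left out, the 1 without pig 5 or without pig 10. The cause of these changes was not tested. REM1 and REM2 had at most 118 counts in a pig, and whether depth sets their precision was not tested.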
